A study of Mus musculus with 21 samples.

Results

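Innate pattern-recognition receptor genes are described here in CD11b+ myeloid cells and LSK cells of mice with a SHP2-driven, JMML-like myeloproliferative disease and of their controls. The 10 genes were taken by symbol, with Ensembl identifiers matched to the symbols, and all 10 were found among 45706 identifiers and passed the filter on low counts among 19555 genes tested. They are the C-type lectin receptors Clec4d, Clec4e, Clec4n and Clec7a, the Toll-like receptors Tlr2 and Tlr4, the co-receptor Cd14, the formyl peptide receptors Fpr1 and Fpr2, and the inflammasome sensor Nlrp3. They were chosen by their lower levels in S3 than in MxCre spleen CD11b+ libraries, so differences between genotypes in the spleen are given as values without a test.

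The 21 RNA-seq libraries comprise 7 of BM LSK cells (lineage-negative, Sca1+, c-Kit+ stem and progenitor cells), 7 of BM CD11b+ and 7 of spleen CD11b+ myeloid cells. In each fraction, 3 libraries come from S3 MxCre;Ptpn11D61Y/+ mice, which is the terminally ill stage, 2 from MxCre and 2 from Ptpn11D61Y/+ mice. Ptpn11 encodes the phosphatase SHP2, and D61Y is an activating change in 1 allele that a Neo-Stop cassette keeps silent until Cre removes it, so only the S3 mice expressed the mutant protein and the Ptpn11D61Y/+ controls, which lack Cre, had a single expressed allele. Cre was driven by the Mx1 promoter and switched on by poly I:C, an agonist of Tlr3 and an interferon inducer that by the study's methods all mice of the experiment received, controls included, whereas the labels state no treatment of the samples. Mx1-driven Cre acts in other organs as well as in blood cells, and the labels used here give neither age nor sex. S3 libraries carry numbers in their labels, 540 and 815 in all 3 fractions, 640 in both CD11b+ fractions and 768 in LSK cells, and values of S3 libraries are given in the order 540, 815, then 768 (LSK) or 640 (CD11b+). Total counts ran from 34992610 to 104509425 per library. The methods speak of 3 mice per genotype for CD11b+ RNA of S3 and MxCre mice, whereas the labels used here give 2 libraries per control group and do not say that these came from separate animals, so p-values measure the spread between these samples, which may be technical.

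Pattern-recognition receptors let phagocytes sense microbes and damaged cells. Clec4e (Mincle), Clec4d (MCL) and Clec4n (Dectin-2) bind microbial glycolipids and mannans and signal through the FcRgamma chain (Fcer1g), and Clec7a (Dectin-1) binds beta-glucans and recruits Syk directly, after which Card9, Bcl10 and Malt1 activate NF-kB. Tlr2 senses bacterial lipoproteins and Tlr4 lipopolysaccharide, which Cd14 hands over to Tlr4 and its partner Ly96, and both receptors signal through Myd88. Fpr1 and Fpr2 are G protein-coupled receptors by which neutrophils and monocytes follow formylated peptides, and Nlrp3 assembles the inflammasome that matures interleukin 1beta. Neutrophils, monocytes and macrophages carry most of these receptors, and they appear as myeloid cells mature.

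On GRCm38 (mm10), 2 groups of these genes lie together. On chromosome 6, Clec4n (chr6:123229843-123247021, plus strand), Clec4d (chr6:123262111-123275265, plus strand) and Clec4e (chr6:123281789-123289870, minus strand) follow each other, so that Clec4d and Clec4e are transcribed toward each other, with Clec7a further along (chr6:129461591-129472779, minus strand, a polymorphic pseudogene in the annotation used). On chromosome 17, Fpr1 (chr17:17876471-17883940, minus strand) and Fpr2 (chr17:17887824-17893952, plus strand) are transcribed away from each other, and exons of Fpr2 overlap Fpr3 on the same strand, so its counts are uncertain. The 250 bases before the RefSeq transcription start (build GRCm38.p6, each written 5′ to 3′ on the strand of its gene) are shown for 2 neighbouring pairs, Clec4d with Clec4e and Fpr1 with Fpr2. The members of each of these pairs are neighbours whose levels were correlated across the CD11b+ libraries, as given at the end. Clec4n and Clec4d, also neighbours, were less correlated (r = 0.30), and Clec4n had no RefSeq promoter to show. Capitals mark the motif match found.
Clec4d, chr6:123261857-123262106, plus strand: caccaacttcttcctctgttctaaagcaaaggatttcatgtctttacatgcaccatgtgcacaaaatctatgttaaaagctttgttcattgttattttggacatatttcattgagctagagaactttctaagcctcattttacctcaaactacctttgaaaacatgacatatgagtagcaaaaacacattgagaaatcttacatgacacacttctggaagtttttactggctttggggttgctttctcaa
Clec4e, chr6:123289872-123290121, minus strand: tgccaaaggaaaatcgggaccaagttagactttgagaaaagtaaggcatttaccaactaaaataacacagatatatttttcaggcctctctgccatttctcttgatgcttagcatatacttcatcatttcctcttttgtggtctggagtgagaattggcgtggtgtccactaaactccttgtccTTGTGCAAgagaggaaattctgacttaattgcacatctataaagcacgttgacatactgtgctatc
Fpr1, chr17:17883940-17884189, minus strand: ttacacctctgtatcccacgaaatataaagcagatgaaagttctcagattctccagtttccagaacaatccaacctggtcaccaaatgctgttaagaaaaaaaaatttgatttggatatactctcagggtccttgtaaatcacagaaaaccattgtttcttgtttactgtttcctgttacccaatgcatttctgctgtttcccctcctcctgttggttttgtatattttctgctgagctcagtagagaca
Fpr2, chr17:17887574-17887823, plus strand: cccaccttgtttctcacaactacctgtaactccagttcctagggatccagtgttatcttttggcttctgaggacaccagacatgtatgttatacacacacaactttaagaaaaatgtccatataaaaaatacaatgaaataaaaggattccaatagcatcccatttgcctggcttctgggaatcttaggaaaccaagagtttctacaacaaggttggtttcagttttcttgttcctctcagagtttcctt

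Of the 10 genes, 7 had 9 promoters in the RefSeq table, and Clec4n, Tlr4 and Cd14 had none. On both strands, the windows were searched for AP-1 (TGANTCA), C/EBP (TTGCNNAA) and PU.1 (GAGGAAGT) and for a motif of NF-kB. The match in the promoters of these genes was a C/EBP motif before Clec4e, which reads TTGTGCAA on the strand of the gene and matches on the opposite strand, 66 to 59 bases before the start, and it overlapped no other match. Among 32851 promoters of the same length, 9.56% held the C/EBP letters, 6.75% those of AP-1, 2.44% those of PU.1 and 1.21% those of NF-kB, so these short motifs are common and a match is a description of the letters alone.

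The fractions were checked against their defining markers. Kit, the stem cell factor receptor of the LSK gate, ranged from 8.17 to 9.06 log2 CPM (counts scaled to library size, prior count 2) in LSK and from 2.26 to 6.19 in CD11b+ libraries, which did not overlap. Itgam, which encodes CD11b, ranged from 7.24 to 10.70 in CD11b+ and from 4.98 to 6.84 in LSK libraries, and it overlaps a predicted gene, Gm49368. Ly6a, which encodes the Sca1 of the LSK gate, did not separate the fractions, with 5.41 to 6.25 log2 CPM in LSK and 1.68 to 8.29 in CD11b+ libraries, highest in spleen CD11b+ S3 815 and BM CD11b+ S3 815. Erythroid transcripts, led by globins, summed to 14803 to 223782 CPM in BM CD11b+ libraries, although erythrocytes do not carry CD11b. Ptpn11 stood at 6.79 and 6.86 log2 CPM in MxCre, 6.0 and 5.92 in Ptpn11D61Y/+ and 7.26, 7.13 and 7.25 in S3 LSK libraries, the lowest in the group whose second allele is silent, but no genotype comparison of Ptpn11 passed the test in LSK or BM CD11b+ cells.

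Several CD11b+ libraries stood apart. BM CD11b+ MxCre 1 correlated best with spleen CD11b+ MxCre 2 (r = 0.901 across genes) and less with the other BM CD11b+ libraries (0.848 to 0.879), and 241 of 11038 genes whose median in the fraction reached 2 CPM were at 0. Its macrophage markers, led by C1qa, summed to 20382 CPM against 599 to 3623 in the other BM CD11b+ libraries, and its immediate-early genes, led by Junb, to 37752 against 7175 to 12775. BM CD11b+ S3 640 correlated best with spleen CD11b+ S3 640 (r = 0.957), and its mature neutrophil markers summed to 28894 CPM against 99395 to 142928 in the other BM CD11b+ libraries, while BM CD11b+ S3 815 had 77 of the 11038 genes at 0. Of the spleen CD11b+ libraries, MxCre 1 and 2 had 52413 and 48094 CPM of immediate-early genes against 5979 to 27947 in the others, and MxCre 1 had 142 of 11169 such genes at 0. Both spleen CD11b+ Ptpn11D61Y/+ libraries were low in mature neutrophil markers, at 4657 and 8720 CPM, against 41500 to 134317 in the other spleen CD11b+ libraries. BM CD11b+ MxCre 2, BM CD11b+ S3 540 and spleen CD11b+ S3 540 held at least 100 counts both of Xist, which marks female cells, and of Y-linked genes, whereas LSK S3 540 had 1 count of Xist and 15172 of Y-linked genes, against 2780 and 958 in BM CD11b+ S3 540, so it cannot be told from these data that the number 540 marks 1 mouse. Spleen CD11b+ Ptpn11D61Y/+ 1 held 4753 counts of Xist and 0 of Y-linked genes and BM CD11b+ Ptpn11D61Y/+ 1 held 1 and 6602, so a shared number did not mark 1 mouse there. Several values below are also given without 1 of these libraries.

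Summed over the 10 receptor genes, the level was 36.3 to 68.4 CPM in LSK, 549 to 976 in the BM CD11b+ libraries other than MxCre 1, 3530 in that library, 643 to 1182 in the spleen CD11b+ libraries of Ptpn11D61Y/+ and S3 mice and 3695 and 9518 in the spleen CD11b+ MxCre libraries. The LSK sums lay below those of every CD11b+ library, and the highest sums were those of the same CD11b+ MxCre libraries in which immediate-early genes were highest. In bulk samples, fewer cells that carry a receptor and less RNA per cell cannot be told apart.

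**Figure D1:**
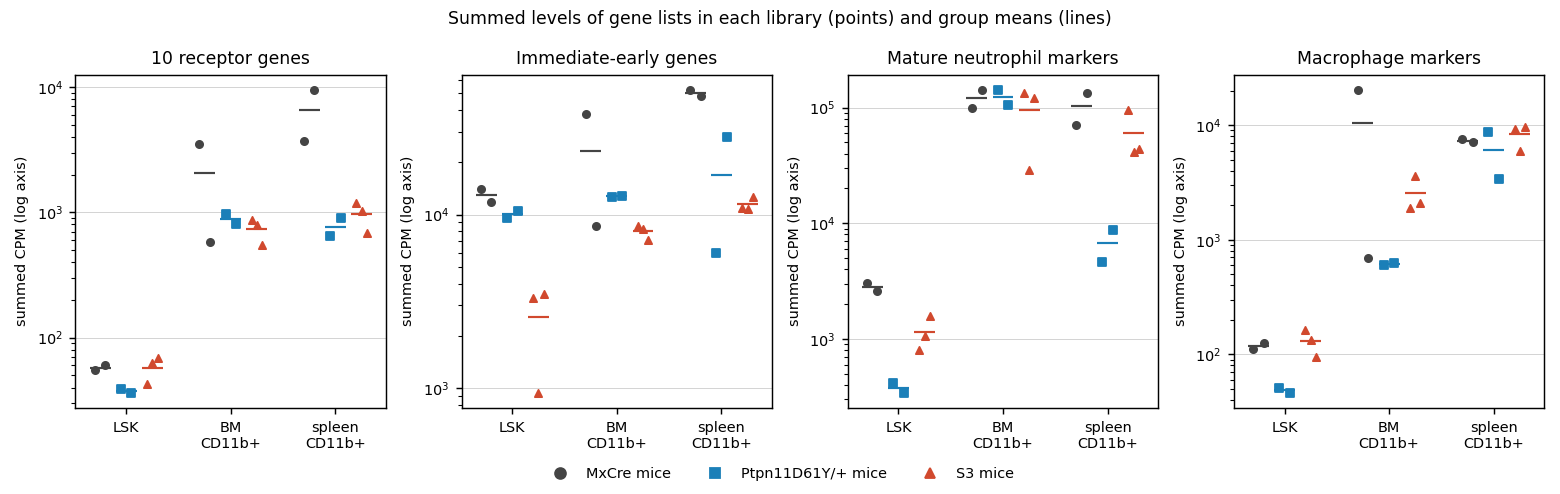
Summed CPM of the 10 receptor genes (log axis) in each of the 21 libraries, with the sums of immediate-early genes and of mature neutrophil and macrophage markers in the same libraries. LSK libraries lie between 36.3 and 68.4 CPM of receptor genes, and BM CD11b+ MxCre 1 and both spleen CD11b+ MxCre libraries lie highest, at 3530, 3695 and 9518 CPM.

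Per length of exon, as RPKM (CPM per kilobase), the order of the genes differed between fractions. In LSK libraries the median RPKM was highest for Tlr2 (4.1), then Clec4e (2.82) and Clec4d (2.36), and lowest for Clec4n (0.195). In BM CD11b+ libraries Fpr2 led with a median of 123 RPKM, followed by Clec4d (65), Fpr1 (62), Cd14 (44.4), Tlr2 (33.1), Clec7a (27.5), Clec4e (23.9) and Nlrp3 (16.4), and Clec4n (3.3) and Tlr4 (2.05) were last. In spleen CD11b+ libraries Cd14 led with 108 RPKM, followed by Fpr2 (84), Clec4n (67.9), Clec4d (48.3), Clec7a (46.1), Fpr1 (45.1), Tlr2 (38.9), Clec4e (24.9) and Nlrp3 (18.6), and Tlr4 (2.26) was again last.

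Neighbours in these orders overlapped over the libraries of a fraction, as for Fpr2 (64.9 to 181 RPKM) and Clec4d (19.5 to 751 RPKM) in BM CD11b+ libraries and for Cd14 (42 to 814 RPKM) and Fpr2 (17.2 to 211 RPKM) in spleen CD11b+ libraries. Tlr4 stood apart at the low end of the spleen CD11b+ order, with 1.57 to 5.07 RPKM against 5.62 to 238 for Nlrp3, the next gene. Clec4n moved from next to last in BM CD11b+ (1.28 to 87.6 RPKM) to the third place in spleen CD11b+ libraries (31.7 to 151 RPKM).

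**Figure D2:**
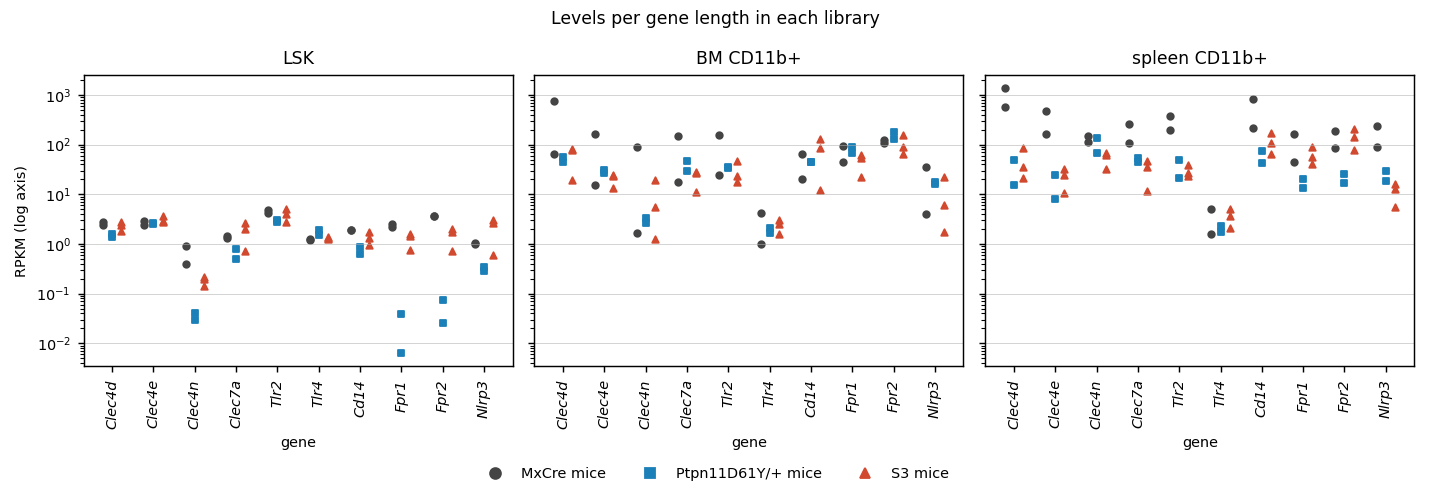
RPKM (log axis) of each receptor gene in the 7 LSK, 7 BM CD11b+ and 7 spleen CD11b+ libraries, with a point per library, marked by genotype. Tlr4 has medians of 1.29, 2.05 and 2.26 RPKM in the 3 fractions, while Fpr2 goes from 1.71 to 123 and 84.

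Between LSK and BM CD11b+ cells, the comparison asks which receptors rise from progenitors to myeloid cells of the same organ, and each genotype was tested by the quasi-likelihood test of edgeR, with p adjusted by the Benjamini-Hochberg method over 19555 genes (edgeR adjusted p). Of the 10 genes, 9 rose in MxCre, where 16.6% of all genes tested were called higher, 9 in Ptpn11D61Y/+ (10.8% of all genes) and 8 in S3 (14.4% of all genes). The median log2 fold change of the 10 genes was 4.94, 5.82 and 4.14 in the same order, against -0.28, -0.039 and -0.079 over all genes tested. In this fit of all libraries, Tlr4 did not pass in any genotype, and Nlrp3 did not pass in S3. Mature neutrophil markers rose in the same comparison, Ly6g by 10.53 and Retnlg by 11.03 on the log2 scale in S3, and the part of cell composition in the rise of the receptors was not tested. The MxCre values rest in part on BM CD11b+ MxCre 1: without it, the log2 fold change was 4.63 for Clec4d, 2.53 for Clec4e, 3.70 for Clec7a, 2.43 for Tlr2, 3.40 for Cd14, 4.24 for Fpr1 and 5.06 for Fpr2, all still called. It was then 1.32 for Clec4n and 1.94 for Nlrp3, neither called, and -0.32 for Tlr4, which turned its direction. The 8 calls in S3 held without BM CD11b+ S3 640 and without BM CD11b+ S3 815. Their sizes moved over all alternatives, from 4.24 to 6.10 for Clec4n and from 2.88 to 4.55 for Clec7a. When only the 4 libraries compared were fitted, 3 genes passed in MxCre (Cd14, Fpr1 and Fpr2), where 11.4% of all genes were called higher, and without LSK Ptpn11D61Y/+ 1 or 2 the count in Ptpn11D61Y/+ was 5 or 4, with 3.01% or 2.96% of all genes called higher and the lone sample assumed to vary like the other groups.

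**Figure D3:**
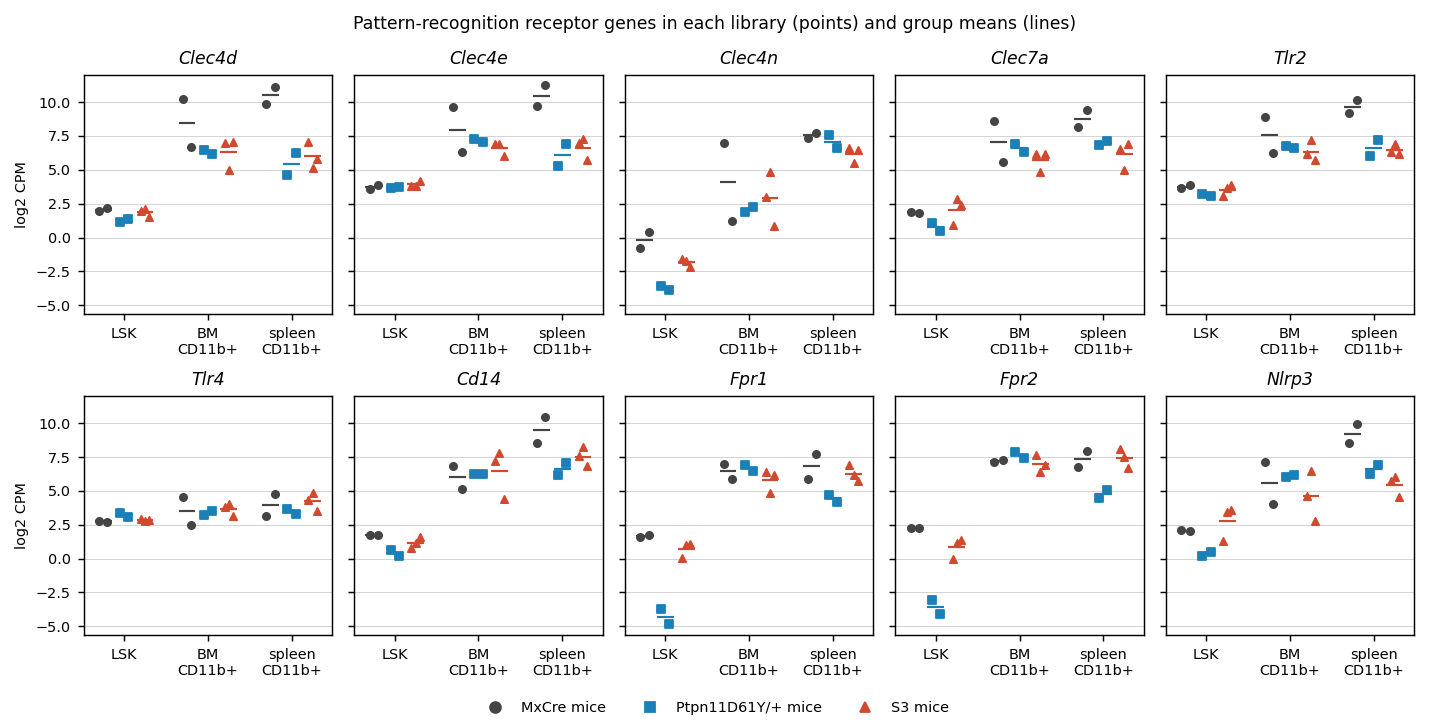
Level of each receptor gene (log2 CPM) in the 21 libraries, by fraction, with a point per library, coloured by genotype, and a line at each group's mean. Except for Tlr4 and Nlrp3, every CD11b+ point lies above every LSK point of a gene, and the MxCre points of spleen CD11b+ cells lie above the others for Clec4d, Clec4e, Clec7a, Tlr2, Cd14 and Nlrp3.

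Clec4d, which pairs with Clec4e at the cell surface, was low in LSK cells and ranged widely in CD11b+ cells. In LSK, Clec4d stood at 1.93 and 2.18 log2 CPM in MxCre, 1.13 and 1.33 in Ptpn11D61Y/+ and 1.96, 1.55 and 2.14 in S3. Both Ptpn11D61Y/+ libraries were the lowest of the LSK libraries, and MxCre and S3 overlapped. In BM CD11b+, Clec4d stood at 10.23 and 6.70 log2 CPM in MxCre, 6.48 and 6.16 in Ptpn11D61Y/+ and 6.96, 7.03 and 4.96 in S3. MxCre 1 alone lay above the other BM CD11b+ libraries, and MxCre 2 lay within the range of the Ptpn11D61Y/+ and S3 libraries. In spleen CD11b+, Clec4d stood at 9.86 and 11.12 log2 CPM in MxCre, 4.61 and 6.27 in Ptpn11D61Y/+ and 7.06, 5.80 and 5.10 in S3. Both MxCre libraries were far above all others, and Ptpn11D61Y/+ and S3 overlapped. For Clec4d, the log2 fold change from LSK to BM CD11b+ cells was 7.30 in MxCre (SE 1.16, edgeR adjusted p = 0.000648), 5.11 in Ptpn11D61Y/+ (SE 1.05, edgeR adjusted p = 0.00372) and 4.68 in S3 (SE 0.839, edgeR adjusted p = 0.00117).

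Clec4e, the receptor for mycobacterial cord factor, followed a similar course from a higher CPM in progenitors. Per length, its LSK range (2.43 to 3.61 RPKM) overlapped that of Clec4d (1.35 to 2.81 RPKM). In LSK, Clec4e stood at 3.59 and 3.87 log2 CPM in MxCre, 3.62 and 3.71 in Ptpn11D61Y/+ and 3.84, 4.17 and 3.81 in S3. The LSK libraries lay close together, and S3 lay above Ptpn11D61Y/+ without overlap. In BM CD11b+, Clec4e stood at 9.64 and 6.28 log2 CPM in MxCre, 7.24 and 7.05 in Ptpn11D61Y/+ and 6.88, 6.04 and 6.89 in S3. MxCre 1 was again the highest, and both Ptpn11D61Y/+ libraries lay above the S3 libraries. In spleen CD11b+, Clec4e stood at 9.70 and 11.23 log2 CPM in MxCre, 5.31 and 6.92 in Ptpn11D61Y/+ and 6.95, 5.69 and 7.30 in S3. The MxCre libraries were the highest, and Ptpn11D61Y/+ and S3 overlapped. For Clec4e, the log2 fold change from LSK to BM CD11b+ cells was 5.04 in MxCre (SE 0.919, edgeR adjusted p = 0.00137), 3.48 in Ptpn11D61Y/+ (SE 0.853, edgeR adjusted p = 0.0106) and 2.71 in S3 (SE 0.674, edgeR adjusted p = 0.00891). When the number in the labels entered the fit as a replicate block, the S3 call was lost (edgeR adjusted p = 0.0709). The Ptpn11D61Y/+ call was lost without BM CD11b+ Ptpn11D61Y/+ 1 and without either LSK Ptpn11D61Y/+ library.

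Clec4n, a receptor for fungal mannans, differed from its neighbours in being nearly absent from LSK cells. In LSK, Clec4n stood at -0.78 and 0.40 log2 CPM in MxCre, -3.58 and -3.88 in Ptpn11D61Y/+ and -1.61, -2.16 and -1.72 in S3. The 3 groups did not overlap, and the Ptpn11D61Y/+ values rest on 9 and 5 counts against 68 and 136 in MxCre and 41, 19 and 37 in S3. In BM CD11b+, Clec4n stood at 6.96 and 1.24 log2 CPM in MxCre, 1.92 and 2.24 in Ptpn11D61Y/+ and 2.99, 0.89 and 4.81 in S3. The groups overlapped, with MxCre 1 highest and S3 640 next. In spleen CD11b+, Clec4n stood at 7.35 and 7.74 log2 CPM in MxCre, 7.57 and 6.58 in Ptpn11D61Y/+ and 6.59, 6.44 and 5.49 in S3. The S3 libraries lay below both MxCre libraries, and Ptpn11D61Y/+ overlapped with both. For Clec4n, the log2 fold change from LSK to BM CD11b+ cells was 6.10 in MxCre (SE 1.4, edgeR adjusted p = 0.0051), 6.35 in Ptpn11D61Y/+ (SE 1.49, edgeR adjusted p = 0.00831) and 5.59 in S3 (SE 1.13, edgeR adjusted p = 0.00253). Without BM CD11b+ MxCre 1, the MxCre value was 1.32 and did not pass (edgeR adjusted p = 0.317). The call was also lost without LSK MxCre 1 and when only the groups compared were fitted.

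Clec7a, the beta-glucan receptor, was read at moderate levels in all CD11b+ libraries. In LSK, Clec7a stood at 1.92 and 1.79 log2 CPM in MxCre, 1.08 and 0.45 in Ptpn11D61Y/+ and 0.95, 2.39 and 2.83 in S3. Ptpn11D61Y/+ lay below MxCre, and S3 overlapped with both. In BM CD11b+, Clec7a stood at 8.61 and 5.56 log2 CPM in MxCre, 6.93 and 6.31 in Ptpn11D61Y/+ and 6.16, 6.18 and 4.85 in S3. MxCre 1 was the highest and S3 640 the lowest, and both Ptpn11D61Y/+ libraries lay above the S3 libraries. In spleen CD11b+, Clec7a stood at 8.13 and 9.40 log2 CPM in MxCre, 6.86 and 7.14 in Ptpn11D61Y/+ and 6.57, 6.93 and 4.96 in S3. The MxCre libraries were the highest, S3 640 the lowest, and Ptpn11D61Y/+ and S3 overlapped. For Clec7a, the log2 fold change from LSK to BM CD11b+ cells was 5.93 in MxCre (SE 0.997, edgeR adjusted p = 0.000901), 5.87 in Ptpn11D61Y/+ (SE 0.996, edgeR adjusted p = 0.000905) and 3.60 in S3 (SE 0.73, edgeR adjusted p = 0.0026).

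Tlr2 (chr3:83836272-83841767, minus strand), the receptor for bacterial lipoproteins, was measured well in progenitors. In LSK, Tlr2 stood at 3.68 and 3.85 log2 CPM in MxCre, 3.22 and 3.05 in Ptpn11D61Y/+ and 3.08, 3.91 and 3.63 in S3. Ptpn11D61Y/+ lay below MxCre, and S3 overlapped with both. In BM CD11b+, Tlr2 stood at 8.88 and 6.22 log2 CPM in MxCre, 6.72 and 6.64 in Ptpn11D61Y/+ and 6.14, 5.71 and 7.17 in S3. The groups overlapped, with MxCre 1 highest. In spleen CD11b+, Tlr2 stood at 9.18 and 10.15 log2 CPM in MxCre, 5.98 and 7.20 in Ptpn11D61Y/+ and 6.35, 6.13 and 6.87 in S3. Both MxCre libraries were above all others, which overlapped. For Tlr2, the log2 fold change from LSK to BM CD11b+ cells was 4.32 in MxCre (SE 0.749, edgeR adjusted p = 0.00102), 3.55 in Ptpn11D61Y/+ (SE 0.722, edgeR adjusted p = 0.00346) and 2.90 in S3 (SE 0.573, edgeR adjusted p = 0.00224).

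Tlr4 (chr4:66827584-66930284, plus strand), the lipopolysaccharide receptor, was the flattest of these genes over fractions. In LSK, Tlr4 stood at 2.79 and 2.74 log2 CPM in MxCre, 3.38 and 3.10 in Ptpn11D61Y/+ and 2.92, 2.85 and 2.81 in S3. The groups did not overlap, with Ptpn11D61Y/+ highest and MxCre lowest, but they lay within a narrow range. In BM CD11b+, Tlr4 stood at 4.55 and 2.47 log2 CPM in MxCre, 3.19 and 3.51 in Ptpn11D61Y/+ and 3.83, 3.12 and 4.07 in S3. The MxCre libraries were both the highest and the lowest. In spleen CD11b+, Tlr4 stood at 3.13 and 4.79 log2 CPM in MxCre, 3.65 and 3.31 in Ptpn11D61Y/+ and 4.32, 3.54 and 4.82 in S3. All groups overlapped. For Tlr4, the log2 fold change from LSK to BM CD11b+ cells was 1.09 in MxCre (SE 0.615, edgeR adjusted p = 0.163), 0.11 in Ptpn11D61Y/+ (SE 0.607, edgeR adjusted p = 0.918) and 0.86 in S3 (SE 0.5, edgeR adjusted p = 0.2).

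Cd14 (chr18:36725067-36726798, minus strand), the lipopolysaccharide co-receptor, did not share the flat course of Tlr4. In LSK, Cd14 stood at 1.72 and 1.77 log2 CPM in MxCre, 0.61 and 0.17 in Ptpn11D61Y/+ and 0.75, 1.63 and 1.18 in S3. MxCre was highest, S3 intermediate and Ptpn11D61Y/+ lowest, without overlap. In BM CD11b+, Cd14 stood at 6.84 and 5.15 log2 CPM in MxCre, 6.26 and 6.26 in Ptpn11D61Y/+ and 7.19, 4.41 and 7.79 in S3. The S3 libraries were both the highest (640) and the lowest (815), and all groups overlapped. In spleen CD11b+, Cd14 stood at 8.52 and 10.46 log2 CPM in MxCre, 6.18 and 7.04 in Ptpn11D61Y/+ and 7.54, 6.81 and 8.24 in S3. MxCre libraries were the highest, and Ptpn11D61Y/+ and S3 overlapped. For Cd14, the log2 fold change from LSK to BM CD11b+ cells was 4.50 in MxCre (SE 0.932, edgeR adjusted p = 0.00294), 5.88 in Ptpn11D61Y/+ (SE 0.996, edgeR adjusted p = 0.000905) and 5.81 in S3 (SE 0.81, edgeR adjusted p = 0.000174).

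Fpr1 and Fpr2, the chemotactic receptors for formylated peptides, showed the widest contrast within LSK cells. In LSK, Fpr1 stood at 1.56 and 1.75 log2 CPM in MxCre, -3.69 and -4.86 in Ptpn11D61Y/+ and 0.07, 1.08 and 0.97 in S3. In LSK, Fpr2 stood at 2.27 and 2.23 log2 CPM in MxCre, -3.03 and -4.07 in Ptpn11D61Y/+ and -0.046, 1.37 and 1.16 in S3. For both genes the order was MxCre, S3, Ptpn11D61Y/+ from highest to lowest, without overlap, and Ptpn11D61Y/+ lay far below the other groups. In BM CD11b+, Fpr1 stood at 6.97 and 5.91 log2 CPM in MxCre, 6.88 and 6.50 in Ptpn11D61Y/+ and 6.36, 6.15 and 4.87 in S3. In BM CD11b+, Fpr2 stood at 7.15 and 7.32 log2 CPM in MxCre, 7.87 and 7.39 in Ptpn11D61Y/+ and 7.69, 6.89 and 6.39 in S3. Neither gene was lowest in Ptpn11D61Y/+ here: for Fpr1 both Ptpn11D61Y/+ libraries lay above the S3 libraries, and for Fpr2 above the MxCre libraries, with the remaining groups overlapping. In spleen CD11b+, Fpr1 stood at 5.90 and 7.76 log2 CPM in MxCre, 4.72 and 4.18 in Ptpn11D61Y/+ and 6.91, 5.74 and 6.20 in S3. In spleen CD11b+, Fpr2 stood at 6.77 and 7.95 log2 CPM in MxCre, 4.48 and 5.05 in Ptpn11D61Y/+ and 8.09, 6.66 and 7.50 in S3. In the spleen the Ptpn11D61Y/+ libraries were again the lowest for both genes, and MxCre and S3 overlapped. For Fpr1, the log2 fold change from LSK to BM CD11b+ cells was 4.89 in MxCre (SE 0.746, edgeR adjusted p = 0.000483), 11.62 in Ptpn11D61Y/+ (SE 1.02, edgeR adjusted p = 7.77e-06) and 5.17 in S3 (SE 0.618, edgeR adjusted p = 5.16e-05). For Fpr2, the log2 fold change from LSK to BM CD11b+ cells was 4.99 in MxCre (SE 0.669, edgeR adjusted p = 0.000257), 11.53 in Ptpn11D61Y/+ (SE 0.896, edgeR adjusted p = 4.21e-06) and 6.16 in S3 (SE 0.578, edgeR adjusted p = 1.31e-05). Since Fpr1 and Fpr2 were near 0 counts in LSK Ptpn11D61Y/+ libraries, the fitted size of their rise in that genotype depends on few counts.

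Nlrp3 (chr11:59541568-59566956, plus strand), the sensor of the best known inflammasome, was read at low levels in progenitors. In LSK, Nlrp3 stood at 2.12 and 2.02 log2 CPM in MxCre, 0.23 and 0.51 in Ptpn11D61Y/+ and 1.33, 3.62 and 3.46 in S3. Ptpn11D61Y/+ lay below the other groups, S3 815 and 768 were the highest, and S3 540 lay below MxCre. In BM CD11b+, Nlrp3 stood at 7.14 and 4.02 log2 CPM in MxCre, 6.06 and 6.17 in Ptpn11D61Y/+ and 4.64, 2.79 and 6.47 in S3. MxCre and S3 each spanned a wide range around the Ptpn11D61Y/+ libraries. In spleen CD11b+, Nlrp3 stood at 8.52 and 9.92 log2 CPM in MxCre, 6.24 and 6.93 in Ptpn11D61Y/+ and 5.71, 4.51 and 6.02 in S3. The 3 groups did not overlap, with MxCre highest and S3 lowest. For Nlrp3, the log2 fold change from LSK to BM CD11b+ cells was 4.23 in MxCre (SE 1.13, edgeR adjusted p = 0.0107), 5.77 in Ptpn11D61Y/+ (SE 1.22, edgeR adjusted p = 0.00442) and 2.23 in S3 (SE 0.844, edgeR adjusted p = 0.0602). Over all settings, the S3 value ranged from 0.895 to 2.72 and was called in 2 of 13. Without BM CD11b+ MxCre 1, the MxCre value was 1.94 and did not pass (edgeR adjusted p = 0.184). The MxCre call was also lost without LSK MxCre 1, without LSK MxCre 2 and when only the groups compared were fitted.

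The genotypes were then compared within LSK cells, where Fpr1 and Fpr2 were the receptor genes that passed the test. Both were lower in Ptpn11D61Y/+ than in MxCre, Fpr1 by a log2 fold change of -6.56 (SE 0.869, edgeR adjusted p = 0.00526) and Fpr2 by -6.11 (SE 0.738, edgeR adjusted p = 0.00316), in a comparison in which 0.0614% of genes passed, all of them lower. Both were higher in S3 than in Ptpn11D61Y/+, Fpr1 by 5.67 (SE 0.827, edgeR adjusted p = 0.0171) and Fpr2 by 4.80 (SE 0.686, edgeR adjusted p = 0.0171), where 0.0972% of genes passed. These comparisons share the Ptpn11D61Y/+ libraries. The counts of Fpr1 were 8 and 1 in the Ptpn11D61Y/+ libraries, 358 and 351 in MxCre and 139, 201 and 259 in S3, and those of Fpr2 15 and 4, 584 and 490 and 128, 245 and 296. Summed over libraries and relative to depth, Fpr1 was higher in MxCre than in Ptpn11D61Y/+ by a ratio of 95.5 (exact 95% interval 50 to 210) and Fpr2 by 68.5 (exact 95% interval 43.7 to 114), intervals that cover counting error only. The ratios of S3 to Ptpn11D61Y/+ were 50.2 (exact 95% interval 26.3 to 110) for Fpr1 and 26.5 (exact 95% interval 16.9 to 44.4) for Fpr2. Without LSK Ptpn11D61Y/+ 1 or 2, neither gene passed in either comparison, with a lone sample assumed to vary like the other groups: against MxCre, the log2 fold change of Fpr1 was -8.29 or -5.87 and that of Fpr2 -7.08 or -5.57 (edgeR adjusted p from 0.064 to 0.305).

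Part of the mature neutrophil markers moved with Fpr1 and Fpr2 in LSK cells. Of 10 mature neutrophil markers, 5 were called lower in Ptpn11D61Y/+ than in MxCre, among them Ly6g (-8.03), Mmp9 (-8.02) and Ltf (-7.41). Ly6g had 1125 and 847 counts in MxCre, 8 and 1 in Ptpn11D61Y/+ and 19, 59 and 29 in S3, and Retnlg 6132 and 5937, 68 and 65 and 239, 241 and 168. The list, led by S100a9 in MxCre and S3 and by Csf3r in Ptpn11D61Y/+, summed to 3047 and 2577 CPM in MxCre, 413 and 341 in Ptpn11D61Y/+ and 797, 1581 and 1063 in S3, and none of its genes was at 0 in any LSK library. Others of the list did not keep the order of Fpr1 and Fpr2: Csf3r stood at 243 and 232 CPM in MxCre, 165 and 164 in Ptpn11D61Y/+ and 118, 155 and 147 in S3, lowest in S3, and Camp at 231 and 173, 30.9 and 23 and 78.2, 187 and 111, where MxCre and S3 overlapped. Summed macrophage markers were lowest in the same Ptpn11D61Y/+ libraries, with C1qa at 15.2 and 23.7 CPM in MxCre, 2.06 and 0.971 in Ptpn11D61Y/+ and 15.3, 4.95 and 12.5 in S3 and the list at 112 to 125, 46.1 to 51.2 and 95.3 to 162 CPM, as was the monocyte gene Csf1r, at 82.3 and 83.5, 26 and 17.8 and 37.9, 210 and 150 CPM. Of the macrophage list, Vcam1 went the other way, at 11.5 and 10 CPM in MxCre, 15.9 and 13.9 in Ptpn11D61Y/+ and 32.1, 18.8 and 29.1 in S3, and Hmox1, at 19.7 and 14.3, 10.7 and 13.3 and 24.9, 12.3 and 12.1, overlapped between Ptpn11D61Y/+ and S3. edgeR's test called 0 of 10 macrophage and 0 of 6 monocyte markers between Ptpn11D61Y/+ and MxCre LSK cells, with 4 and 1 at an unadjusted p under 0.05. Of all 19555 genes tested, 12 were called and 330 had an unadjusted p under 0.05 in this comparison. Erythroid markers were also lower, at 1653 and 906 CPM in MxCre and 209 and 193 in Ptpn11D61Y/+, as were those of dendritic and T cells, whereas immature neutrophil markers were higher, at 2007 and 1629 against 2730 and 2684 CPM. Markers of megakaryocytes were higher as well, at 186 and 176 against 486 and 375 CPM, and those of basophils and mast cells at 53.5 and 47 against 111 and 238 CPM. Other lists also separated S3 from Ptpn11D61Y/+ LSK libraries. Basophil and mast cell markers summed to 628 to 1126 CPM in S3 against 111 to 238, and eosinophil markers to 243 to 361 against 63.1 to 69.4. Immature neutrophil markers summed to 4371 to 6102 against 2684 to 2730, dendritic cell markers to 600 to 1131 against 198 to 342 and monocyte markers to 217 to 702 against 164 to 199. Immediate-early genes were lower in S3, at 939 to 3498 against 9615 to 10511 CPM. The part of all these transcripts in the differences of the formyl peptide receptors was not tested.

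**Figure D4:**
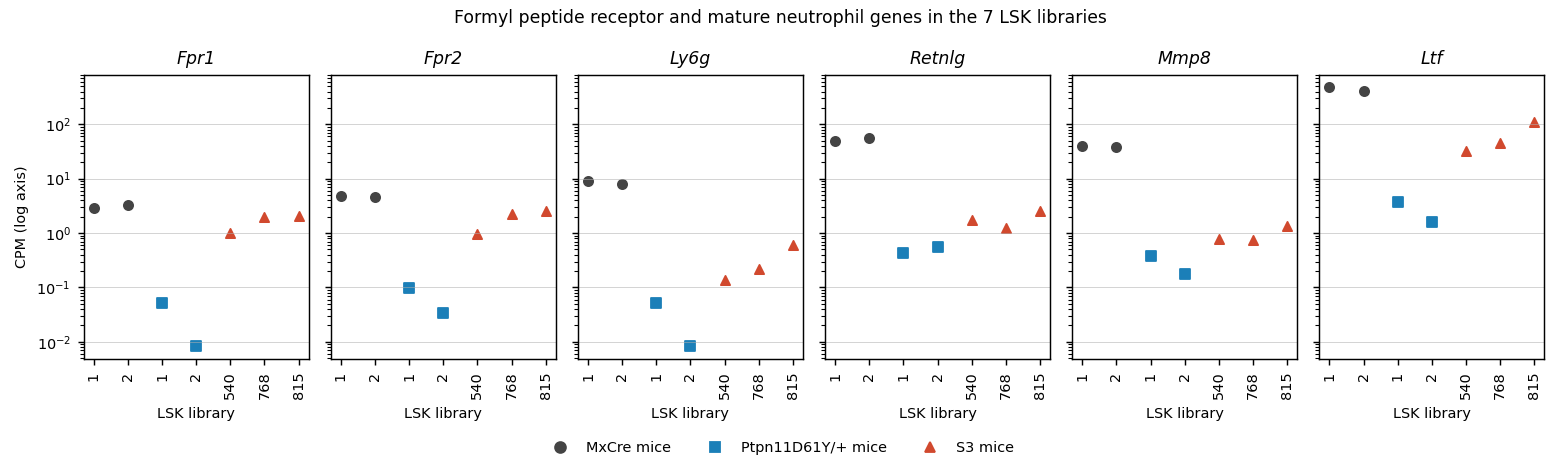
CPM (log axis) of Fpr1 and Fpr2 in the 7 LSK libraries beside Ly6g, Retnlg, Mmp8 and Ltf, 4 of the 10 mature neutrophil markers, with a point per library, marked by genotype. In each panel both Ptpn11D61Y/+ points lie below all S3 points, which lie below both MxCre points, an order that Csf3r and Camp, not plotted, do not keep, and for Fpr1 the Ptpn11D61Y/+ points rest on 8 and 1 counts.

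Of the other 8 genes, 0 passed in any LSK comparison in the fit of all libraries. When only the groups compared were fitted, 7 of these 8 (all but Clec4e) were called between Ptpn11D61Y/+ and MxCre, Tlr4 higher (6.34% of all genes) and 6 lower (7.84%), and Clec4n was called higher in S3 than in Ptpn11D61Y/+ (13.4% of all genes) and lower than in MxCre (13.6%). Between S3 and MxCre LSK cells, 0 of 10 genes passed edgeR's test, where 0.0307% of all genes did, 1 had an unadjusted p under 0.05 (Fpr2, log2 fold change -1.31) with 3.97% of all genes, and DESeq2 called 0 of them. In the fit of all libraries, Nlrp3, with a log2 fold change of 1.04 (SE 0.936), and Clec4n, with -1.82 (SE 1.06), had the largest differences in either direction, and neither passed. Over all alternatives, the Clec4n value ranged from -2.30 to -0.89, a range that includes the value of Fpr2. Immediate-early genes lay lower in S3 than in MxCre LSK libraries, with a median log2 fold change of -2.10 over 15 genes, of which 0 were called. Other receptors of the same families were called higher in S3 than in Ptpn11D61Y/+ LSK cells: Tlr13, a sensor of bacterial ribosomal RNA, by 4.01 (edgeR adjusted p = 0.0389), Clec4a3 by 5.03 (edgeR adjusted p = 0.0171) and Clec4a1 by 4.92 (edgeR adjusted p = 0.0207). They were 1 of 10 other Toll-like receptors and 2 of 13 other C-type lectin receptors, where 0.092% of all genes were called higher.

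In BM CD11b+ cells, no difference between genotypes passed edgeR's test for any of the 10 genes. The test called 0 of 10 between S3 and MxCre, S3 and Ptpn11D61Y/+, and Ptpn11D61Y/+ and MxCre alike, and 0 of all genes (0%) in each comparison. At an unadjusted p under 0.05 there were 5, 0 and 2 receptor genes in this order, and 15.5%, 8.22% and 22.6% of all genes, and DESeq2 called 2, 0 and 2 of them (Clec4d and Clec4e between S3 and MxCre, Clec4d and Clec4n between Ptpn11D61Y/+ and MxCre), all lower in the group named first, as 2.63%, 0.518% and 5.91% of all genes were. Between S3 and MxCre, Clec4d had a log2 fold change of -2.78, Clec4n -2.32, Clec4e -2.12, Clec7a -1.93, Tlr2 -1.61, Nlrp3 -0.97, Fpr1 -0.61, Fpr2 -0.14, Tlr4 -0.13 and Cd14 0.79. These values rest on BM CD11b+ MxCre 1: without it, they were -0.12 for Clec4d, 0.38 for Clec4e, 2.45 for Clec4n, 0.29 for Clec7a, 0.27 for Tlr2, 1.32 for Nlrp3, 1.27 for Tlr4 and 1.88 for Cd14. Over all alternatives, Fpr1 ranged from -1.32 to 0.023 and Fpr2 from -0.57 to 0.15, so both turned direction in at least 1 setting. Without BM CD11b+ MxCre 2, which held both Xist and Y-linked transcripts, 5 genes were called lower in S3 than in MxCre (Clec4d, Clec4e, Clec4n, Clec7a, Tlr2), with -3.65 for Clec4d, and 4 lower in Ptpn11D61Y/+ than in MxCre (Clec4d, Clec4e, Clec4n, Tlr2), where 4.24% and 5.03% of all genes were called lower. Without the 3 libraries that held both kinds of transcript, the counts were 2 and 4, all lower, with 2.11% and 4.31% of all genes called lower.

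Whether the genotypes differed from each other by other amounts in BM CD11b+ than in LSK cells was tested as a difference of log2 fold changes. For S3 against MxCre, 0 of 10 genes passed edgeR's test, as did 0% of all genes, with 3 receptor genes and 8.12% of all genes at an unadjusted p under 0.05 and 0 called by DESeq2. The same test of Ptpn11D61Y/+ against MxCre was added after the values were seen, so it is no independent support for the difference in LSK cells. In it, Fpr1 differed by 6.73 (SE 1.05, edgeR adjusted p = 0.0361) and Fpr2 by 6.53 (SE 0.909, edgeR adjusted p = 0.0198), where 0.0358% of genes passed. Both were lower in Ptpn11D61Y/+ LSK cells and not in BM CD11b+ cells, where their log2 fold changes were 0.16 and 0.42. The mature neutrophil genes Mmp9 (7.91), Mmp8 (7.70) and Ltf (7.56) were called in the same direction. The Fpr1 call was lost without any single library other than BM CD11b+ MxCre 2, and the Fpr2 call also held without BM CD11b+ Ptpn11D61Y/+ 2.

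In spleen CD11b+ cells, 7 of 10 genes lay lower in every S3 than in every MxCre library, the contrast in view when they were proposed, as did 12.9% of all genes tested. The log2 fold change from MxCre to S3 was -4.40 for Clec4d, -3.87 for Clec4e, -3.83 for Nlrp3, -3.26 for Tlr2, -2.53 for Clec7a, -2.15 for Cd14 and -1.31 for Clec4n. Fpr1 (-0.74), Fpr2 (0.054) and Tlr4 (0.13) overlapped between the groups. Without spleen CD11b+ MxCre 1, the log2 fold changes were -4.89 for Clec4d, -4.43 for Clec4e, -1.48 for Clec4n, -3.02 for Clec7a, -3.65 for Tlr2, -0.47 for Tlr4, -2.81 for Cd14, -1.38 for Fpr1, -0.41 for Fpr2 and -4.36 for Nlrp3. Without spleen CD11b+ MxCre 2, they were -3.63 for Clec4d, -2.89 for Clec4e, -1.09 for Clec4n, -1.75 for Clec7a, -2.68 for Tlr2, 1.21 for Tlr4, -0.86 for Cd14, 0.48 for Fpr1, 0.78 for Fpr2 and -2.96 for Nlrp3, so Fpr1, Fpr2 and Tlr4 turned direction between these settings, whereas the other 7 genes stayed lower in S3. Without S3 540, which held both Xist and Y-linked transcripts, Clec4d stood at -5.13, Cd14 at -2.10, Fpr1 at -1.12 and Fpr2 at -0.34. The median of the 10 genes was -2.34 against 0.32 over all genes tested. Cd14 and Clec4n lay nearest to the line between lower and overlapping: the lowest MxCre level of Clec4n was 7.35 and its highest S3 level 6.59 log2 CPM, and those of Cd14 were 8.52 and 8.24.

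The spleen CD11b+ Ptpn11D61Y/+ libraries also lay below MxCre, with a median log2 fold change of -2.72 and 8 genes without overlap, against 21.4% of all genes, and the comparison shares the MxCre libraries with that of S3. The values were -4.96 for Clec4d, -4.33 for Clec4e, -3.12 for Cd14, -3.03 for Tlr2, -2.76 for Nlrp3, -2.68 for Fpr2, -2.63 for Fpr1 and -1.89 for Clec7a. Clec4n (-0.40) and Tlr4 (-0.70) overlapped, and their direction turned under some settings: Clec4n stood at 0.27 with library size alone, and Tlr4 at 0.37 without MxCre 2. Without MxCre 1 or 2, Cd14 stood at -3.78 or -1.84, Fpr1 at -3.28 or -1.42 and Clec7a at -2.38 or -1.11, and without Ptpn11D61Y/+ 1 or 2, Clec4d stood at -4.32 or -6.01. Between S3 and Ptpn11D61Y/+, Fpr2 (2.74) and Fpr1 (1.89) lay higher in every S3 library, as 9.5% of all genes did, and Nlrp3 (-1.08) lower, as 12.2% did. The Clec4d, Clec4e, Tlr2 and Clec7a values of S3 and Ptpn11D61Y/+ overlapped, with log2 fold changes of 0.55, 0.47, -0.23 and -0.64. Without Ptpn11D61Y/+ 1 or 2, these were -0.06 or 1.62 for Clec4d, -0.11 or 1.49 for Clec4e and -0.71 or 0.51 for Tlr2, and without S3 540 Clec4d stood at -0.18. Immediate-early genes moved with the MxCre libraries, at a median log2 fold change of -1.76 from MxCre to S3, and mature neutrophil markers were low in Ptpn11D61Y/+, and the part of either in the receptor levels was not tested. Macrophage markers summed to 7055 to 7626 CPM in MxCre, 3400 to 8776 in Ptpn11D61Y/+ and 5980 to 9728 in S3 spleen CD11b+ libraries, which overlap. Other lists separated the groups: erythroid markers summed to 14633, 15925 and 29610 CPM in S3 against 3426 and 1153 in MxCre, and eosinophil markers to 314, 364 and 167 against 101 and 55.3. Basophil and mast cell markers summed to 110, 119 and 14.1 CPM in S3 against 8.77 and 2.55 in MxCre. Between the control genotypes, B cell markers summed to 1433 and 2024 CPM in Ptpn11D61Y/+ against 220 and 96.1 in MxCre, T cell markers to 264 and 130 against 46.1 and 37.8 and immature neutrophil markers to 39.5 and 117 against 281 and 326. Stem and progenitor markers summed to 323 and 372 CPM in Ptpn11D61Y/+ against 172 and 71.2 in MxCre, and NK cell markers to 52.1 and 167 against 50.1 and 26.8. The part of these cell types in the receptor levels was not tested.

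**Figure D5:**
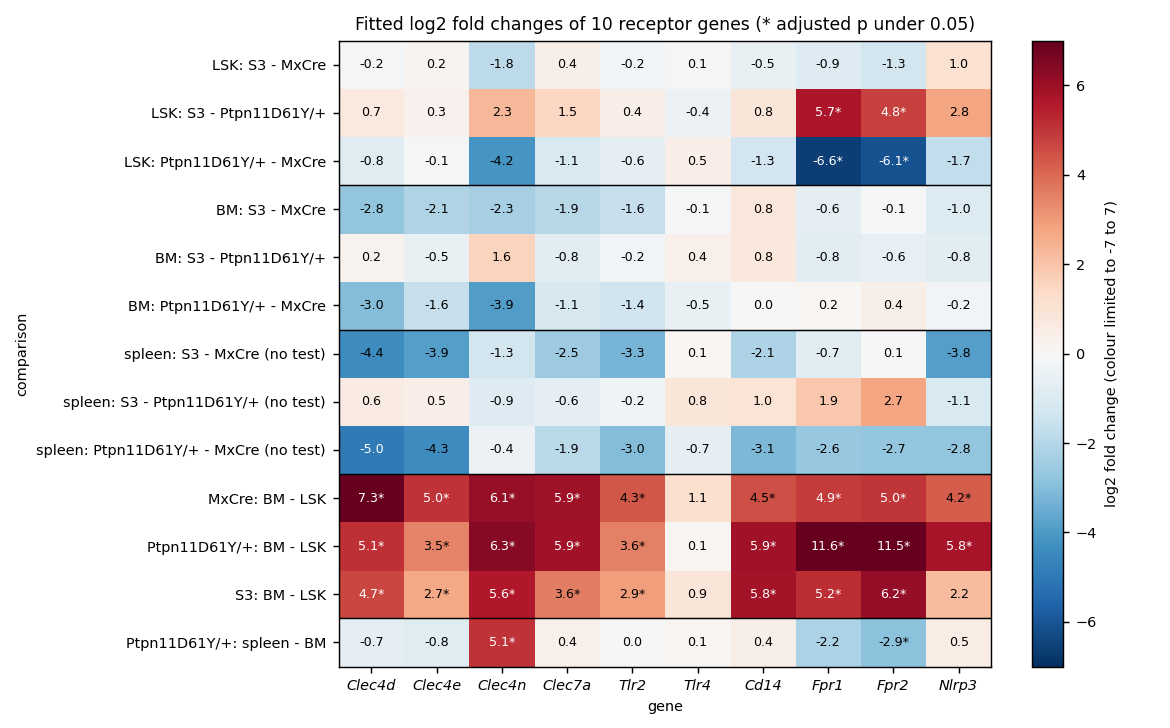
Fitted log2 fold changes of the 10 receptor genes (columns) in 13 comparisons (rows), coloured from blue (lower in the group named first) to red (higher) and printed in each cell, with a star at an adjusted p under 0.05 in tested comparisons. BM CD11b+ against LSK is red for every gene, while genotype comparisons carry stars for Fpr1 and Fpr2 in LSK cells alone.

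Between the CD11b+ fractions, receptors were tested in Ptpn11D61Y/+ mice, since the spleen MxCre and S3 libraries had been used in choosing the genes. Clec4n was higher in spleen than in BM CD11b+ cells by a log2 fold change of 5.08 (SE 1.33, edgeR adjusted p = 0.0466), and Fpr2 was lower, with a log2 fold change of -2.86 (SE 0.606, edgeR adjusted p = 0.0231), where 3.69% of all genes passed, 1.23% higher and 2.46% lower. Fpr1 had a log2 fold change of -2.23 (edgeR adjusted p = 0.0692), and its groups did not overlap. The Clec4n and Fpr2 calls were both lost without any single library and with the replicate number as a block, and that of Clec4n also without the filter, with library size alone and with crossed numbers in the block, with log2 fold changes from 4.46 to 5.48 and from -3.18 to -2.48 over all alternatives. Beside them, 8 of 10 mature neutrophil markers were called lower, Ngp by -4.68, and of the macrophage markers Spic, the factor of red pulp macrophages, was called higher by 4.45, and the part of cell composition was not tested. Of the related lists, the test called 2 higher and 0 lower of 10 other Toll-like receptors, 0 higher and 2 lower of 13 other C-type lectin receptors and 0 higher and 1 lower of 5 other chemoattractant receptors that passed the filter. They were Tlr3 (3.90) and Tlr7 (1.60), which sense RNA in endosomes and were higher in the spleen, and Clec5a (-2.63), Clec4a2 (-1.52) and the leukotriene B4 receptor Ltb4r1 (-3.21), which were lower. In MxCre mice the receptor genes had a median log2 fold change from BM to spleen CD11b+ cells of 1.42 and 5 of 10 lay higher in spleen without overlap (18.1% of all genes), and in S3 mice the median was 0.44 and Clec4n alone (2.59) did not overlap (4.73% of all genes). Over all alternatives, the Clec4n value in S3 ranged from 2.08 to 3.95. Between S3 libraries of the same number, Cd14, Clec7a and Tlr4 also lay higher in spleen at each number. The remaining genes, apart from Clec4n, went both ways between same-numbered S3 libraries. The MxCre values rest on BM CD11b+ MxCre 1 and on the spleen libraries: without BM CD11b+ MxCre 1, Clec4d went from 1.27 to 3.93, Clec4e from 1.88 to 4.38, Clec4n from 1.57 to 6.34 and Clec7a from 1.12 to 3.34. Without BM CD11b+ MxCre 2, Clec4d stood at 0.40 and Tlr4 at -0.35, and without spleen CD11b+ MxCre 2, Tlr4 (-0.72), Fpr1 (-0.63) and Fpr2 (-0.47) were lower in spleen than in BM CD11b+ cells. For Clec4n, the log2 fold change in MxCre was 1.57, so its fitted level was higher in spleen than in BM CD11b+ cells in all 3 genotypes.

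The partners of these receptors were followed from LSK to BM CD11b+ cells in the same tests, with genes called higher and lower given in MxCre, Ptpn11D61Y/+ and S3 in turn. All MxCre values of these lists, here and in the next paragraph, include BM CD11b+ MxCre 1, which stood apart. How far they rest on that library was not examined for these lists. Of all genes tested, 16.6% were called higher and 20.3% lower in MxCre, 10.8% and 8.84% in Ptpn11D61Y/+ and 14.4% and 12.7% in S3, the shares against which the count of each list stands. Of 10 other Toll-like receptors, 2 and 1, 4 and 1, and 3 and 2 were called, and Tlr13 rose by 4.11 in MxCre and 6.69 in Ptpn11D61Y/+, whereas Tlr3, the receptor for double-stranded RNA, fell by 2.86 on the log2 scale in S3. Of 15 Toll-like receptor co-receptors, adaptors and kinases, 6 and 1, 4 and 0, and 6 and 1 were called, among them Ly86, the partner of Cd180, which rose by 4.40, 4.08 and 2.49, and the kinase Irak2, which rose by 2.34, 1.97 and 1.76. The Tlr4 partner Ly96 rose by 3.46 in MxCre, and the adaptor Myd88 by 1.94 in S3. Of 13 other C-type lectin receptors, 9 and 1, 8 and 1, and 9 and 1 were called, with Clec4a2 up by 4.56 and Clec4b1 by 4.35 in S3, and Clec1a lower in each genotype. Of 9 C-type lectin signalling genes, 5 and 1, 5 and 0, and 5 and 0 were called: the signalling chain Fcer1g rose by 4.15, 4.90 and 3.20, its relative Tyrobp by 4.05, 5.10 and 2.76, and Card9 by 2.58 in MxCre and 2.36 in Ptpn11D61Y/+.

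Of 5 other chemoattractant receptors that passed the filter on low counts, out of 10 listed, 4 and 0, 4 and 0, and 5 and 0 were called, with the complement receptor C5ar1 up by 6.09, 8.58 and 6.17 and Ltb4r1 by 4.97, 4.89 and 4.04. Of 16 inflammasome genes other than Nlrp3, 6 and 1, 5 and 0, and 6 and 0 were called, and Il1b, the cytokine that the inflammasome matures, rose by 7.85, 9.43 and 5.66, Nlrp12 by 4.37, 5.60 and 3.54, and the adaptor Pycard by 1.89 in S3. Of 10 NOD and cytosolic nucleic acid sensors, 2 and 2, 2 and 1, and 3 and 1 were called: Nod2, a sensor of bacterial muramyl dipeptide, rose by 1.53, 1.61 and 1.78, while the DNA sensor Cgas changed by -2.64, -1.05 and -1.51. In a list this short, counts of 1 to 3 are near the shares of all genes and are no result about the list. Of 12 inhibitors of innate receptor signalling, 5 and 1, 5 and 1, and 7 and 0 were called, with the decoys of interleukin 1 among the largest rises, Il1rn by 6.51, 8.69 and 6.91 and Il1r2 by 8.68, 7.55 and 6.35. In the BM CD11b+ comparisons of genotypes, 0 genes of these lists passed edgeR's test, as 0 of all genes did. From MxCre to S3 spleen CD11b+ cells, where these lists were described without a test, the median log2 fold change was -1.74 for other chemoattractant receptors, -1.18 for inhibitors, -0.42 for inflammasome genes and 1.12 for other Toll-like receptors, which for the last is the opposite direction to that of Tlr2.

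Across the 14 CD11b+ libraries, which share fractions, genotypes and the high MxCre libraries, log2 CPM of the receptor genes was compared as a description. Pearson's r was 0.97 between Clec4e and Tlr2, 0.89 between the neighbours Clec4d and Clec4e, 0.89 between Tlr2 and Nlrp3 and 0.87 between the neighbours Fpr1 and Fpr2, and lowest between Clec4n and Fpr2 (-0.33). Between the neighbours Clec4n and Clec4d it was 0.30. A mean of at least 3 log2 CPM was reached by 8604 genes, receptor genes included. Among those that are not receptor genes of this set, the pattern most like the mean of the receptor genes was that of Nfe2l2 (r = 0.96). Those that followed included Sh2d3c, Selplg, Fam114a1, Asprv1, Snap23, Litaf, Pttg1ip and Selenon (r down to 0.93). The single most alike gene was Sh2d3c for Clec4e (r = 0.98), Fbxo31 for Clec4d (0.98), Rasip1 for Clec7a (0.94), Ets2 for Tlr2 (0.98), Stat5b for Cd14 (0.97), 5830432E09Rik for Fpr1 (0.92), Orm1 for Fpr2 (0.96) and Flcn for Nlrp3 (0.98). For Tlr4 it was Mroh1, with the lowest r of these, 0.86.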

How the data were processed

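Per the labels and the study's methods, RNA of sorted LSK, BM CD11b+ and spleen CD11b+ cells was isolated with a column kit, stranded mRNA libraries were sequenced in pairs, and reads were trimmed with Trim Galore 0.6.5 and mapped with STAR 2.5.3a to mm10. The counting program and its use of strand are not given in the sources used here, so overlapping genes are uncertain. The authors deposited raw counts per Ensembl gene, 1 table per library, without normalization, and all 21 tables were used. Symbols, positions and exon lengths came from a GRCm38 annotation, with 45143 of 45706 identifiers matched.

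Counts were fitted with edgeR 4.0.16 in R 4.3.3. filterByExpr (minimum count 10, minimum total 15) kept 19555 genes, TMM factors were used, and 1 robust quasi-likelihood fit covered 9 groups, with 12 residual degrees of freedom and an adjusted p under 0.05 as the threshold. The receptor genes, the lists and the tests were chosen with earlier results of these data known. All 10 receptor genes were named, and of each list up to 3 called genes with the largest change per comparison. The script was tested on simulated counts. Alternatives were DESeq2 1.42.0, RLE factors, no filter, fits of only the groups compared, leaving out each library, a replicate block, pooled controls and, added after seeing the data, library size alone, leaving out 3 libraries and crossed numbers. The labels give S3 libraries of different fractions the same mouse number (540, 815, 640), but the sex-linked transcripts of 540 differ between LSK and CD11b+ libraries, and control libraries share only a replicate number, so the block rests on numbers that may not mark animals. Proteins were not analysed here, and 2 genes with patterns like those of the receptor genes are not reported here.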

Additional observations from a re-analysis of the deposited data

Results flagged for a closer look

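Some genes moved one way in every library of 1 fraction and the opposite way in every library of another. Fpr1 lay higher in S3 than in Ptpn11D61Y/+ libraries in LSK (log2 fold change 5.67) and spleen CD11b+ cells (1.89) and lower in BM CD11b+ cells (-0.78). Fpr2 lay lower in Ptpn11D61Y/+ than in MxCre libraries in LSK (-6.11) and spleen CD11b+ cells (-2.68) and higher in BM CD11b+ cells (0.42). Nlrp3 lay higher in S3 than in Ptpn11D61Y/+ LSK libraries (2.75) and lower in S3 spleen CD11b+ libraries (-1.08). Clec4e lay higher in S3 than in Ptpn11D61Y/+ LSK libraries (0.28) and lower in BM CD11b+ cells (-0.50), and from BM to spleen CD11b+ cells it lay higher in MxCre (1.88, 0.93 to 4.38 over all alternatives) and lower in Ptpn11D61Y/+ mice (-0.82, -1.85 to -0.27). The BM CD11b+ differences of Fpr1 (SE 0.572), Fpr2 (SE 0.566) and Clec4e (SE 0.700) between genotypes did not pass edgeR's test. Those of Nlrp3 and Clec4e in LSK cells and of Clec4e between the Ptpn11D61Y/+ fractions did not pass either. In spleen CD11b+ cells, 9.5% of all genes lay higher and 12.2% lower in every S3 than in every Ptpn11D61Y/+ library, and 21.4% lower in Ptpn11D61Y/+ than in MxCre. Whether the opposite moves differ was not tested, apart from that of Fpr2 between LSK and BM CD11b+ cells, given next.

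The difference of Ptpn11D61Y/+ against MxCre between BM CD11b+ and LSK cells was tested, in a comparison added after the values were seen, and it passed for Fpr1 (6.73, edgeR adjusted p = 0.0361) and Fpr2 (6.53, edgeR adjusted p = 0.0198).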

How the results depend on the processing

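Of the alternatives of counts and medians, 137 stayed alike, 8 had clearly more calls, 15 clearly fewer and 1 turned its sign. Alike allowed a moderately different count of calls, or a median moved by less than the SD of the genes' log2 fold changes. Calls of single genes could therefore be lost within it. Of the alternatives of single called genes, 343 kept the call, 63 lost it and 0 reversed. For receptor genes called in BM CD11b+ cells, S3 against MxCre, the count went from 0 to 2 with DESeq2 and 2 without the 3 libraries with Xist and Y-linked transcripts (0 to 5 when 1 library was left out, with 0% to 4.24% of all genes called lower), and for Ptpn11D61Y/+ against MxCre to 2 and 4 (0 to 4, with 0% to 5.03%). When only the groups compared were fitted, counts were 1 (S3 against MxCre, Clec4n) and 9 (Ptpn11D61Y/+ against MxCre, all but Clec4e) in LSK cells and 3 for BM CD11b+ against LSK cells in MxCre, beside 13.6% of all genes called lower, 7.84% lower and 6.34% higher, and 11.4% higher. Without 1 library, counts were 0 to 2 (S3 against Ptpn11D61Y/+) and 0 to 2 (Ptpn11D61Y/+ against MxCre) in LSK cells, with 0% to 0.216% of all genes called higher and 0% to 0.0384% lower, 7 to 10 (MxCre) and 4 to 9 (Ptpn11D61Y/+) from LSK to BM CD11b+ cells, with 5.22% to 15.1% and 2.96% to 5.32% of all genes called higher, and 0 to 0 from BM to spleen CD11b+ cells in Ptpn11D61Y/+. The last comparison had 1 without the filter, 1 with library size alone, 0 with the replicate block and 1 with crossed numbers in the block, Fpr2 wherever 1 was left. The spleen median of S3 against Ptpn11D61Y/+ turned to -0.086 without spleen CD11b+ Ptpn11D61Y/+ 1 (-0.086 to 1.07), and the medians against MxCre ranged over -2.91 to -1.42 for S3 and -3.28 to -1.86 for Ptpn11D61Y/+. The cause of these changes was not tested.

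Of all genes, DESeq2 called 965, 256 and 1864 in BM CD11b+ and 128, 248 and 103 in LSK cells (S3 against MxCre, S3 against Ptpn11D61Y/+, Ptpn11D61Y/+ against MxCre), where edgeR called 0, 0 and 0, and 6, 19 and 12, and fits of only the groups compared called 4700, 5223 and 2508 in LSK cells. Library size alone shifted the all-gene median from -0.28 to -1.34 (MxCre, LSK to BM CD11b+) and from 0.32 to 0.77 (spleen, MxCre to S3). Deviations of same-numbered libraries correlated at -0.173 to 0.407, and a replicate block changed 1 call in S3, that of Clec4e from LSK to BM CD11b+ cells (edgeR adjusted p = 0.0709), and those from BM to spleen CD11b+ cells in Ptpn11D61Y/+. A prior count of 0.5 moved a level by at most 1.21 (Fpr1, LSK Ptpn11D61Y/+ 2), where depth limits the fold changes.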
